A study of Mus musculus with 11 samples.

Results

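Cells that carried the Nestin-GFP reporter were sorted from the adrenal cortex and from the adrenal medulla, and their transcripts were compared between the 2 tissues. The members are the 3 cortical and 3 medullary GFP-positive libraries, 6 of the 11 libraries of the series, chosen by tissue and gate from the sample titles. The mice were males of the Nes-GFP strain, perfused with saline and otherwise untreated, and green fluorescent protein (GFP) marks cells in which regulatory sequence of Nestin is or recently was active. Glands of 6 mice were dissected into cortex and medulla and pooled in 3 groups of 2 mice, and 180 to 300 sorted cells made up a library, amplified with 17 cycles of PCR. Mice were about 3.5 months old for cortical libraries 1 and 2 and medullary library 1, and about 2.5 months old for cortical library 3 and medullary libraries 2 and 3. The labels tie no library to a pool. Libraries of the 2 tissues can share animals, and so can libraries of 1 tissue, so the 3 libraries of a tissue may not be separate animals. The p-values thus reflect only how far these libraries differ, which includes technical variation. The remaining 5 libraries held GFP-negative cells of the cortex (n = 3) and of the medulla (n = 2) from mice of the same strain. Those mice were about 3.5 months old, except for cortical GFP-negative library 3 (about 2.5 months). In the medulla, gate and age are thus partly mixed. The GFP-negative libraries entered the same fit and are used below only to set the tissue difference beside that of the other gate.

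The adrenal cortex makes steroid hormones from cholesterol: the outer zona glomerulosa makes aldosterone under angiotensin II and potassium, and the zona fasciculata makes glucocorticoid under ACTH. The medulla holds chromaffin cells, neural crest derivatives that store catecholamines and peptides in dense-core granules and release them on cholinergic input. Nestin is an intermediate filament protein of neural and other progenitor cells, and in the adrenal it is also found in glia and in cells of vessel walls. Schwann cell precursors, glial cells that travel along nerves, are known to give rise to chromaffin cells in the embryo. The title of the series concerns such precursors as a source of both steroid-producing and chromaffin cells.

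Libraries held 18500690 to 28648901 counts, and 3 counts in 1 library corresponded to 0.105 to 0.162 CPM (counts scaled to a common library size). The floor used where a group had no count was 3 counts over the whole group, which is a lower CPM. Counting intervals and floors cover counting error only, since reads amplified by PCR without molecular identifiers are not independent molecules. Libraries of 1 tissue correlated at Pearson r of 0.927 to 0.943 across genes on a log scale, and libraries of different tissues at 0.838 to 0.884. Cortical library 1 stood apart by haemoglobin transcripts (Hbb-bs was at 312 CPM there and at most 0.310 CPM in any other GFP-positive library) and by traces of chromaffin transcripts. Medullary library 2 held the most glial and matrix transcript. In the text, values are CPM in libraries 1, 2 and 3 in that order, log2 changes are cortex over medulla with an approximate standard error (SE), and a gene is called at an adjusted p below 0.05. In bulk samples such as these, fewer cells of a type and less RNA per cell cannot be told apart.

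**Figure D1:**
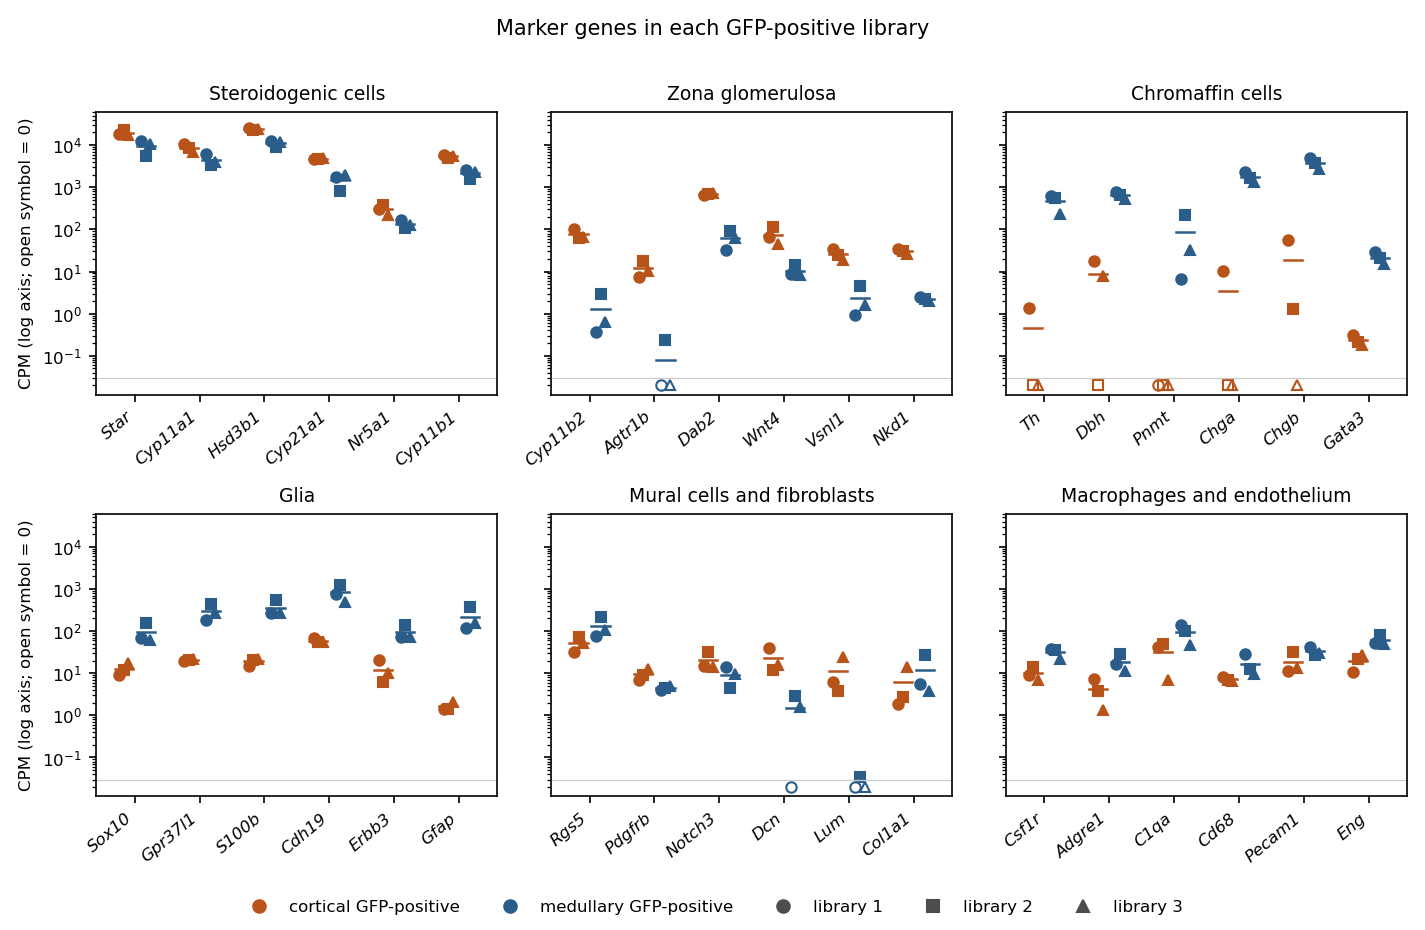
CPM of 36 marker genes (log axis, open symbols at the bottom are 0) in each GFP-positive library, cortex in orange and medulla in blue, with a symbol for each library and a bar at the group mean. Steroidogenic genes were high in both tissues, Cyp11b2 and Agtr1b were nearly confined to the cortex, chromaffin genes were nearly confined to the medulla, and the glial genes shown were present in both and higher in the medulla, from 7.53-fold for Sox10 to 132-fold for Gfap.

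The GFP-positive cells of the 2 tissues differed in many genes, and the larger differences lay on the medullary side. Of 20893 genes tested, 3236 were called (15.5%), 1262 higher in the cortex (6.04%) and 1974 higher in the medulla (9.45%). Counts of list members called, given below, are to be read beside these shares. At least 4-fold differences were called for 209 genes higher in the cortex and 1273 higher in the medulla. The median log2 change of all tested genes was -0.03. Values of the 2 groups did not overlap for 7214 genes (34.5%). The count of calls fell to 2107 without cortical library 1, 2156 without cortical library 3 and 2006 without medullary library 2. With age as a covariate 2562 genes were called. Among the 3236 genes the direction of the mean CPM was the same within the older and within the younger libraries for 3230. Since the 3236 were picked as called in these same libraries, that agreement was largely set by the choice and is no separate support.

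**Figure D2:**
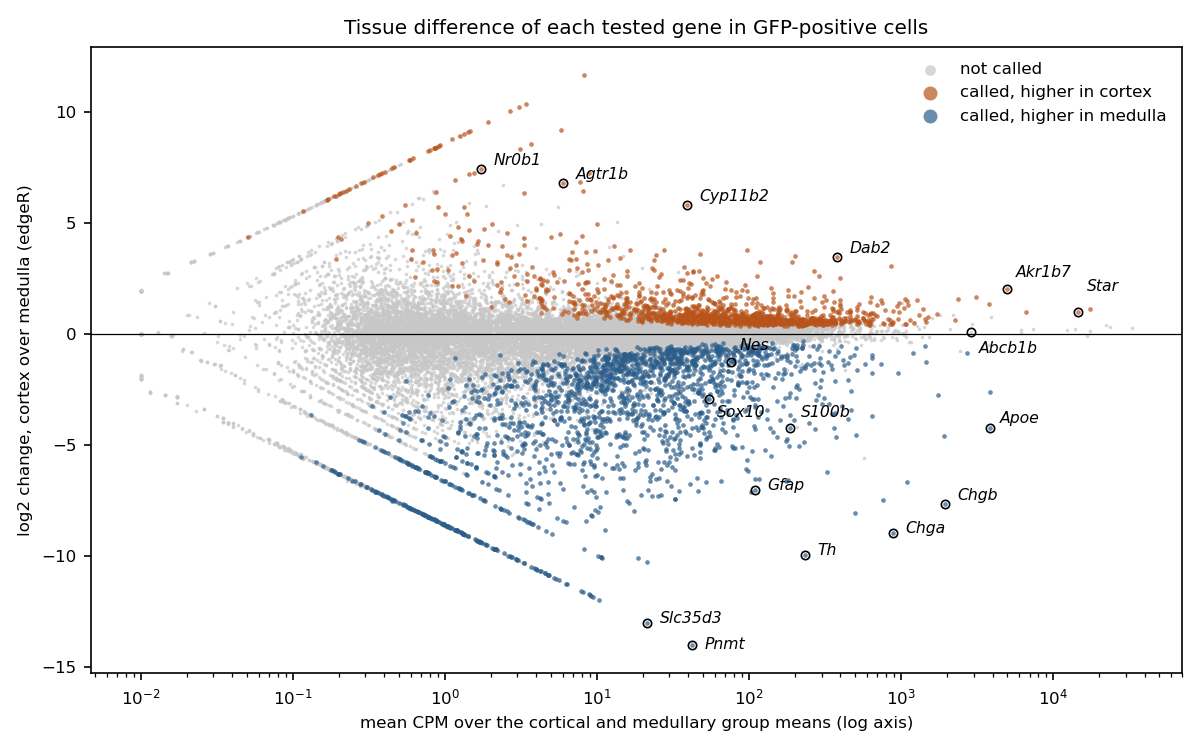
The log2 change of each tested gene (cortex over medulla) against its mean CPM (log axis), with called genes in orange (higher in cortex) and blue (higher in medulla). Named genes are ringed: Pnmt and Slc35d3, with no cortical count, lie lowest at fitted values of -14.01 and -13.02 that are no bound, while Star, at 1.01, lies near 0 at a high level.

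Nes itself, whose regulatory sequence drives the reporter (mm10 chromosome 3, 87971078 to 87980451, ENSMUSG00000004891), was present in every library and higher in the medulla. It stood at 50.9, 35.3 and 47.4 CPM in the cortex and at 78.7, 178 and 69.2 CPM in the medulla (log2 -1.29, SE 0.365, adjusted p = 0.0392). The groups did not overlap, but medullary library 2 held more than double the level of the other medullary libraries. The call was lost without cortical library 1, 2 or 3 or medullary library 2 (adjusted p of 0.0788 to 0.133), with age as a covariate (0.0881) and in a fit of the 6 GFP-positive libraries alone (0.0534), and the log2 change was -0.73 without medullary library 2. Vim, another intermediate filament gene of progenitors and mesenchymal cells, was 9.63-fold higher in the medulla, at 52.7, 104 and 73.9 against 507, 1278 and 438 CPM (adjusted p = 0.00167). Of 12 reporter and progenitor genes 2 were higher in the cortex and 3 in the medulla (Nes, Vim and Cd44), with a median of -0.59. Of these 5 calls 3 remained as a count without cortical library 2 or 3 or medullary library 1 or 2.

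Most genes of catecholamine synthesis and storage were called higher in medullary GFP-positive cells, and Th and Pnmt were at or near 0 in the cortical ones. Of 15 members tested, 11 were higher in the medulla and 1 in the cortex, with a median log2 change of -3.46. Th, tyrosine hydroxylase, which catalyses the rate-limiting step (ENSMUSG00000000214, chromosome 7, 142892752 to 142931128), stood at 1.38, 0 and 0 CPM in the cortex and at 609, 559 and 232 CPM in the medulla (log2 -9.98, SE 1.03, adjusted p = 0.000345). Dbh, dopamine beta-hydroxylase, the enzyme that makes noradrenaline, stood at 17.7, 0 and 7.97 against 779, 639.8 and 524 CPM (log2 -6.24, SE 1.19, adjusted p = 0.0110). Every medullary library lay far above every cortical one for both genes. Pnmt, which converts noradrenaline to adrenaline (ENSMUSG00000038216, chromosome 11, 98386450 to 98388181), had no count in the cortex and 6.61, 216 and 32.3 CPM in the medulla, at least 1926-fold higher when the cortical group is set to 3 counts in all (adjusted p = 0.0142, and 0.191 by voom). Its medullary libraries differed from one another by more than 10-fold, unlike those of Th. The vesicular monoamine transporter genes Slc18a1 and Slc18a2 were 73.4-fold and 19.8-fold higher in the medulla, and Ddc, the decarboxylase that makes dopamine, was 68.6-fold higher.

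Some genes of the pathway were expressed in both tissues. Cyb561, a granule membrane cytochrome that supplies reducing equivalents to dopamine hydroxylation, stood at 86.6, 62.8 and 68.9 CPM in the cortex and at 525, 517 and 439 CPM in the medulla (log2 -2.76, SE 0.200, adjusted p = 0.000174). Gch1, the first enzyme in the synthesis of the tetrahydrobiopterin cofactor, was not called, at 68.5, 80.0 and 64.5 against 132, 73.3 and 106 CPM (log2 -0.55, SE 0.355, adjusted p = 0.353), and its groups overlapped. Pcbd1 and Qdpr, which recycle that cofactor, were 10.98-fold and 1.69-fold higher in the medulla.

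The granins, acidic proteins that pack the dense-core granules, followed the catecholamine enzymes. Of 15 granin and prohormone processing genes 11 were higher in the medulla and 1 (Cpe) in the cortex, with a median of -5.16. Chga (ENSMUSG00000021194, chromosome 12, 102554969 to 102565027) stood at 10.6, 0 and 0 CPM in the cortex and at 2335, 1689.8 and 1307 CPM in the medulla (log2 -8.98, SE 1.51, adjusted p = 0.00376). Chgb stood at 55.8, 1.29 and 0 against 5058, 3788 and 2695 CPM (log2 -7.66, SE 1.84, adjusted p = 0.0266), and Scg2 at 63.2, 1.29 and 0 against 2901, 1945 and 1638 CPM (log2 -6.65, SE 1.79, adjusted p = 0.0409). The cortical values of all 3 genes lay almost wholly in library 1. Without that library the fitted changes of Chgb and Scg2 were -12.50 and -11.67. Their calls were lost without some other libraries: Chgb without cortical library 2 or medullary library 1 or 2 (adjusted p of 0.0532 to 0.0548), and Scg2 without cortical library 2 or any medullary library (adjusted p of 0.0628 to 0.0780). Among the 27 medulla-higher genes of the catecholamine, granin and neuropeptide lists, cortical library 1 held the highest of the 3 cortical values for 17. How often that library was highest over all genes was not counted. The groups did not overlap for 26, where 34.5% of all tested genes did not overlap. Since the 27 were picked as called in these same libraries, that count is no separate support. The part of those traces in the size of the differences was not tested further.

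Scg3, a granin-binding protein of the granule membrane, did not share that pattern. It stood at 3.38, 3.01 and 2.79 CPM in the cortex and at 69.5, 135 and 71.2 CPM in the medulla (log2 -4.91, SE 0.380, adjusted p = 0.000276), so that its low cortical level was even over the libraries. Hand2, a transcription factor of sympathoadrenal cells, was likewise present in each cortical library, at 4.54, 5.03 and 1.85 against 91.1, 181 and 85.6 CPM (log2 -4.97, SE 0.508, adjusted p = 0.00034). The processing enzyme gene Pcsk1 was 69.6-fold higher in the medulla and Pcsk2 6.54-fold. Cpe, a carboxypeptidase that trims prohormones in many endocrine cells, went the other way, at 1360.0, 1585 and 1789.7 against 602, 503 and 819.9 CPM (log2 1.30, SE 0.178, adjusted p = 0.00135).

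Upstream sequences of the granule genes are shown because 4 members that were 69.6-fold or more higher in the medulla hold the same 8-base palindrome 45 to 78 bases before the start of transcription. TGACGTCA is the full cyclic AMP response element, the site bound by CREB and related factors. The sequences are the 250 bases before the annotated start from RefSeq (GRCm38.p6), 5′ to 3′ on the gene's strand, with the element in capitals. In Chga the variant TGACGTAA is in capitals. Gene spans elsewhere in the text follow the authors' annotation, which can place the start of a gene elsewhere. The sequence shown for Th thus lies inside the span given for Th above. The windows are chr7:142899996-142900245 (minus strand) for Th, chr2:132781392-132781641 (plus) for Chgb, chr1:79440027-79440276 (minus) for Scg2, chr13:75089607-75089856 (plus) for Pcsk1 and chr12:102554691-102554940 (plus) for Chga.
Th: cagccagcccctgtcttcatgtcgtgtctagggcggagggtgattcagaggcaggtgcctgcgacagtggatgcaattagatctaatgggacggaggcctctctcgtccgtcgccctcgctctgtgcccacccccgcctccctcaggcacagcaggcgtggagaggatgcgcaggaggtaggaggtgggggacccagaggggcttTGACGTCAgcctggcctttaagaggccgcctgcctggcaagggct
Chgb: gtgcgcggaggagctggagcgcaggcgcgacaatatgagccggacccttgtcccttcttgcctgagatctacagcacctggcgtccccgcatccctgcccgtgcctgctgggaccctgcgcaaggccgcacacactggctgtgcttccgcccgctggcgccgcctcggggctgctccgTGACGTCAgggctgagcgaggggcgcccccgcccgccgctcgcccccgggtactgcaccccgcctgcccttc
Scg2: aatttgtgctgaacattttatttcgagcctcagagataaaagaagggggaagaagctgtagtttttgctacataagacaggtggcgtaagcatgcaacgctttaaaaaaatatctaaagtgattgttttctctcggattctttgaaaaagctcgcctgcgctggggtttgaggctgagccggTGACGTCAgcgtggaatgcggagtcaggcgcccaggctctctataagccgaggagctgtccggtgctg
Pcsk1: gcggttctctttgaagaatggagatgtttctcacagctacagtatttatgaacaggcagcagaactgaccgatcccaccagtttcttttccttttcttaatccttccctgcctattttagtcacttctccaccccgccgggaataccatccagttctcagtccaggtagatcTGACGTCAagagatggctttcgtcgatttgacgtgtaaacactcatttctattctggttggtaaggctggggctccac
Chga: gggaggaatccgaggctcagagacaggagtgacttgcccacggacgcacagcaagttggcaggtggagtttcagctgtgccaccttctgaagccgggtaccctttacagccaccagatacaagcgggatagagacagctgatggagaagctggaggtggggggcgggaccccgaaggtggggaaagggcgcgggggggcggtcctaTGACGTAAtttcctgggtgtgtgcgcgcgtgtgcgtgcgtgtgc
The first base of the element lies 45 bases before the start in Th, 72 in Chgb, 68 in Scg2, 78 in Pcsk1 and 44 in Chga. Both strands were searched, and the palindrome reads the same on both. Of 27025 genes with a promoter in the table, 1.77% hold TGACGTCA in this window and 0.525% hold TGACGTAA. Among the 37 genes of the catecholamine, granin and neuropeptide lists that have a promoter there, 5 hold TGACGTCA (Th, Chgb, Scg2, Pcsk1 and Cartpt) and 1 holds TGACGTAA (Chga). Over all tested genes the share with TGACGTCA was 3.52% of those higher in the cortex, 2.97% of those higher in the medulla and 2.84% of those not called, so the shares of the 2 directions were close. A match of letters is a description and shows no binding.

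Peptide genes of the medulla were among the most abundant differences. Of 10 neuropeptide genes tested 5 were higher in the medulla and none in the cortex. Npy, neuropeptide Y, stood at 5.43, 5.41 and 0 CPM in the cortex and at 1002, 1448 and 511 CPM in the medulla (log2 -8.09, SE 1.17, adjusted p = 0.00331). Gal, galanin, stood at 24.7, 0.301 and 0.495 against 2682, 780.1 and 1099 CPM (log2 -7.48, SE 1.59, adjusted p = 0.0166). Penk, the precursor of enkephalins, was 55.2-fold higher in the medulla, and Adm, adrenomedullin, 40.2-fold. The 5th gene, Cartpt, ranged from 0.574 to 37.8 CPM over the medullary libraries (adjusted p = 0.0361), and its call was lost without any library except medullary library 3 (adjusted p of 0.0597 to 0.107), with age as a covariate (0.0728) and by voom (0.191).

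Transcription factors of the sympathoadrenal lineage were called for 10 of 15 members, all higher in the medulla, with a median of -5.18. Gata3, needed for chromaffin cell survival, stood at 0.312, 0.215 and 0.180 against 29.01, 20.5 and 14.7 CPM (log2 -6.48, SE 0.398, adjusted p = 0.00013). Hand1, a factor of the same lineage, had no count in the cortex and was at least 174-fold higher in the medulla against the floor. Isl1 was not called (adjusted p = 0.121), with no count in medullary library 1 and 14.3 and 4.65 CPM in libraries 2 and 3, and it was called with no filter on low counts (adjusted p = 0.0442).

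Lists of regulated exocytosis, of the neuronal cytoskeleton and of ion channels also held more calls on the medullary side. Of 25 exocytosis genes 15 were higher in the medulla and 1 in the cortex (Rims2, lost without medullary library 1 or 2, adjusted p of 0.0517 to 0.0640). Snap25, a SNARE protein of vesicle fusion, stood at 10.5, 0.0430 and 0.0450 CPM in the cortex and at 442, 306 and 299 CPM in the medulla (log2 -6.63, SE 1.31, adjusted p = 0.00842), again with its cortical reads in library 1. Syp, synaptophysin, was 21.3-fold higher, with 1.69, 1.33 and 2.48 CPM in the cortex. Of 20 neuronal cytoskeleton and RNA-binding genes 11 were higher in the medulla and none in the cortex, and 7 were called without cortical library 2 or 3 or medullary library 2. Elavl4, a neuronal RNA-binding protein, had 2 counts in the cortex and 53.3, 44.6 and 29.6 CPM in the medulla, 1445 times as much (95% counting interval, 399.9 to 11928). Among 19 channel genes 11 were higher in the medulla and 3 in the cortex, while the summed level of the list was 1635 to 2294 CPM in cortical and 889.6 to 1607 CPM in medullary libraries. Chrnb4, a subunit of the ganglionic acetylcholine receptor, had no count in the cortex and was at least 414-fold higher in the medulla. Scn3a, a neuronal sodium channel, was 221-fold higher. Kcnk3, which encodes the acid-sensitive potassium channel TASK-1 of glomerulosa cells, was 2.27-fold higher in the cortex, at 1268, 1852 and 1227 against 890.0, 424 and 600.1 CPM (adjusted p = 0.0135).

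The genes with the largest differences higher in the medulla included several outside the lists. Slc35d3, a transporter needed for dense granules of platelets, had no cortical count and 41.4, 40.4 and 46.4 CPM in the medulla, at least 968-fold higher. Spock3, a secreted proteoglycan, was at least 469-fold higher, with 17.3, 21.4 and 23.4 CPM. Nrsn1, a neuronal membrane protein, Rit2, a small GTPase of neurons, Nlrp6 and A730046J19Rik each had 1 count in the cortex and means of 20.3 to 21.7 CPM in the medulla. Edn3, the ligand of the endothelin receptor of neural crest cells, had 2 counts in the cortex and 45.2, 33.9 and 32.9 CPM in the medulla, 1269 times as much (95% counting interval, 351 to 10476). Its receptor gene Ednrb stood at 11.3, 16.8 and 15.4 against 58.0, 180 and 119 CPM (log2 -3.04, SE 0.552, adjusted p = 0.00549). The ligand was thus nearly limited to the medulla in these libraries and the receptor was present in both tissues.

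Glial transcripts were present in the GFP-positive cells of both tissues and several-fold higher in the medulla. Of 18 Schwann lineage transcription factors and receptors 13 were higher in the medulla and none in the cortex, with a median of -2.98, and 8 were called without medullary library 2. Sox10, the transcription factor that defines the Schwann lineage (ENSMUSG00000033006, chromosome 15, 79154913 to 79164490), stood at 9.00, 11.8 and 17.5 CPM in the cortex and at 69.0, 158 and 60.6 CPM in the medulla (log2 -2.91, SE 0.589, adjusted p = 0.0111). Without medullary library 2 its change was -2.35 and the Sox10 call was lost (adjusted p = 0.0508). Erbb3, the neuregulin receptor of Schwann cells, stood at 20.6, 6.31 and 9.91 against 74.2, 137 and 72.2 CPM (log2 -2.94, SE 0.424, adjusted p = 0.00178). Foxd3, a factor of early crest and Schwann cell precursors, was 10.6-fold higher in the medulla, and Ngfr, the low-affinity neurotrophin receptor, 21.7-fold. No cortical library lacked Sox10 or Erbb3, and no cortical value reached the lowest medullary one.

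Of 30 structural and surface genes of glia 24 were called higher in the medulla and 1 in the cortex, with a median of -3.34. S100b, a calcium-binding protein of glia, stood at 14.5, 20.4 and 22.3 CPM in the cortex and at 262, 541 and 264 CPM in the medulla (log2 -4.22, SE 0.349, adjusted p = 0.000196). Cdh19, a cadherin of Schwann cell precursors, was 14.2-fold higher and the receptor gene Gpr37l1 14.5-fold. Medullary library 2 was the highest library for each of these genes. Apod, a lipid carrier secreted by Schwann cells and fibroblasts, stood at 40.5, 339 and 73.6 against 3025, 5828 and 2278 CPM (log2 -4.62, SE 0.818, adjusted p = 0.00484).

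The size of the difference was not the same for all glial genes. Gfap, the glial intermediate filament (ENSMUSG00000020932, chromosome 11, 102887336 to 102900912), was 132-fold higher in the medulla, at 1.38, 1.42 and 2.12 against 121, 369.6 and 158 CPM (log2 -7.04, SE 0.621, adjusted p = 0.000196). Mean levels in cortical GFP-negative cells were 1.36 CPM for Gfap and 0.110 CPM for Sox10. Col28a1, a collagen of peripheral glia, was 35.5-fold higher in the medulla and Mbp, a myelin protein, 5.20-fold, the latter with 19.8, 49.7 and 70.0 against 193, 376 and 156 CPM. The Mbp call was lost without cortical library 1 or 2 or medullary library 2 (adjusted p of 0.0597 to 0.0754). Gldn, a ligand of the node of Ranvier, was the 1 member higher in the cortex, at 2.18, 8.76 and 4.14 against 0.0516, 0.939 and 0.313 CPM (log2 3.44, SE 0.743, adjusted p = 0.0124). It was also present in cortical GFP-negative cells, at a mean of 15.7 CPM.

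Receptors for glial cell line-derived factors were higher in the medulla for Gfra1 and Gfra3, 30.7-fold and 18.2-fold. Of 15 genes of these receptors and of neurotrophins 6 were higher in the medulla and 1 in the cortex, and 4 were called in all without cortical library 1 or 2 or medullary library 2. Bdnf, a neurotrophin, had 1 count in the cortex and 6.35, 4.28 and 0.209 CPM in the medulla (adjusted p = 0.0113, and 0.0691 by voom), and it was not tested without medullary library 1 or 2. Ret, the signalling subunit of the receptors, was not called, at 0, 0 and 1.76 against 3.92, 5.77 and 6.27 CPM (adjusted p = 0.176), and was called without cortical library 3 (adjusted p = 0.00550).

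The calls among Notch pathway genes lay on the medullary side. Of 16 Notch pathway genes 6 were higher in the medulla and none in the cortex, with a median of -0.70. Hey2, a repressor induced by Notch, stood at 0.757, 3.95 and 0.991 CPM in the cortex and at 46.7, 96.6 and 57.6 CPM in the medulla (log2 -5.13, SE 0.665, adjusted p = 0.00102). Heyl, a related repressor, was 12.2-fold higher and Notch1, a receptor, 4.77-fold. Dlk1, a non-canonical ligand expressed by chromaffin cells and by capsular cells, stood at 4.36, 0 and 0.0901 against 239.8, 194 and 182 CPM (log2 -7.11, SE 1.05, adjusted p = 0.00200). Id3, a target of BMP signalling, stood at 90.7, 74.5 and 58.9 against 552, 627 and 479 CPM (log2 -2.89, SE 0.295, adjusted p = 0.000339). Of 23 BMP and TGF-beta genes 2 were higher in the cortex and 3 in the medulla, and 2 in all were called without cortical library 1 or medullary library 1 or 2, and 3 without cortical library 2 or 3.

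Basement membrane genes were called for 4 of 19 members, all higher in the medulla. Nid1, nidogen, which links laminin to collagen IV, stood at 9.89, 26.1 and 20.9 CPM in the cortex and at 165, 373 and 121 CPM in the medulla (log2 -3.53, SE 0.737, adjusted p = 0.0106). Lama4, a laminin chain, was 10.7-fold higher and Agrn, agrin, 6.66-fold. Among the most abundant genes higher in the medulla at least 4-fold were also Cryab, a small heat shock protein (12.9-fold), Cst3, a cysteine protease inhibitor (6.07-fold), and Tmsb4x, which binds actin monomers (6.82-fold). Cryab stood at 92.9, 106 and 81.4 against 1283, 1751 and 581 CPM. These genes were highest in medullary library 2, as the glial genes were.

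**Figure D3:**
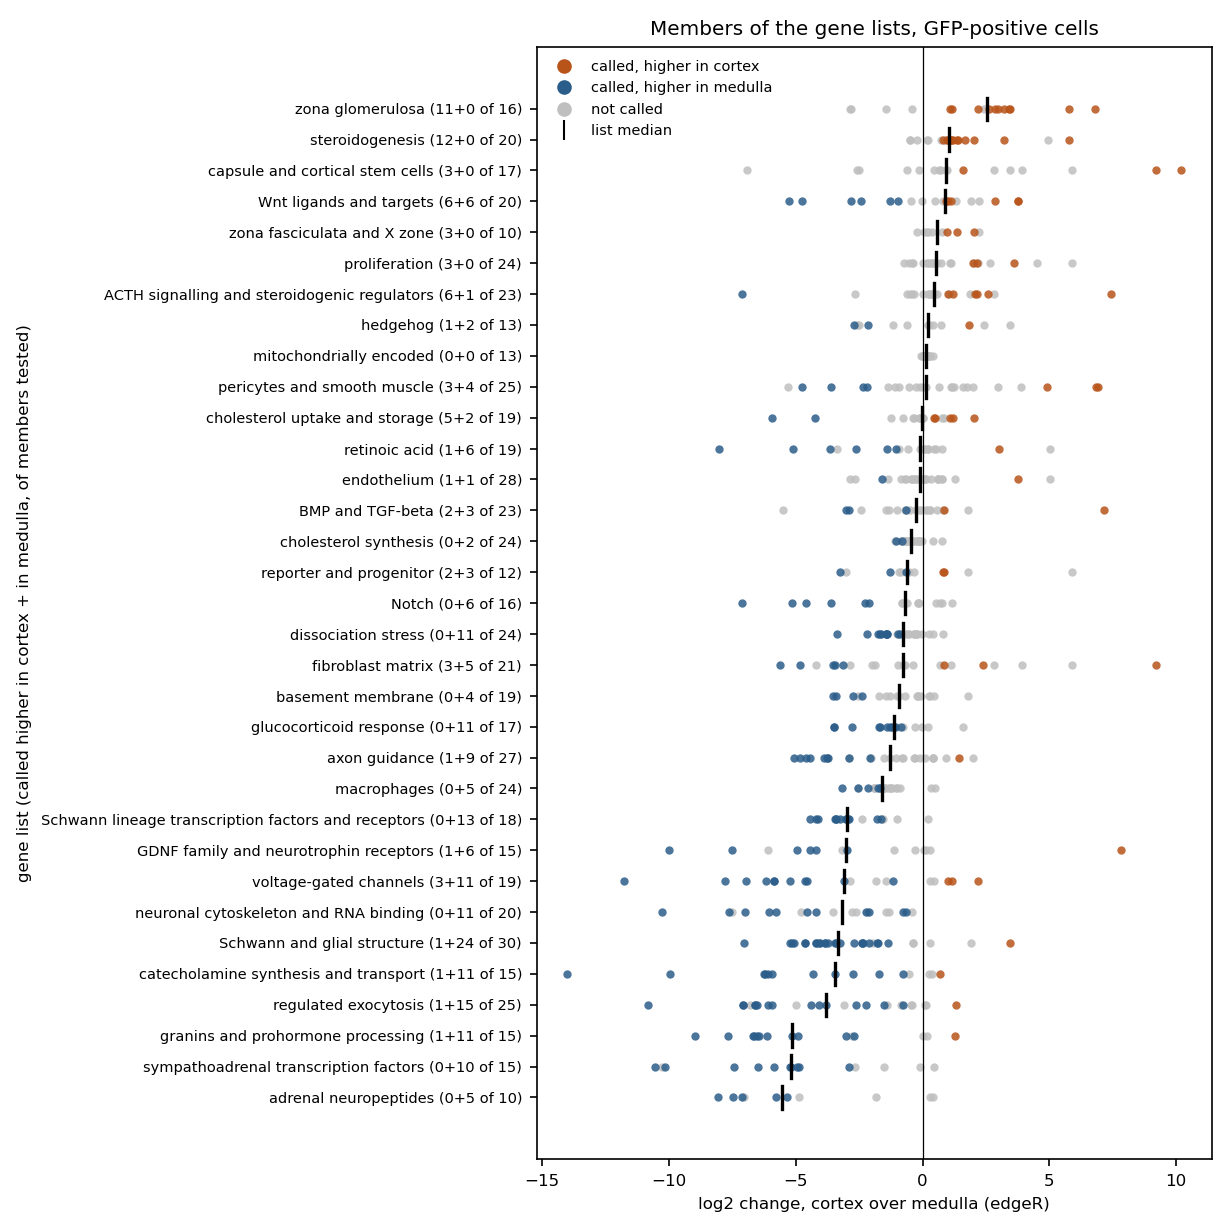
The log2 change (cortex over medulla) of each tested member of the gene lists with at least 10 tested members, ordered by the list's median (black bar), with called members in orange or blue and the others in grey. Chromaffin and glial lists lie on the medullary side with medians from -5.56 to -2.98, zona glomerulosa and steroidogenesis on the cortical side at 2.53 and 1.06, and mitochondrially encoded genes hold no call.

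Steroidogenic transcripts were abundant in the GFP-positive cells of both tissues, and about 2-fold to 3-fold higher in the cortex for the core pathway. Of 20 steroidogenesis genes 12 were higher in the cortex and none in the medulla, with a median log2 change of 1.06. Star, which delivers cholesterol to the mitochondrion, stood at 17986, 22975 and 17727 CPM in the cortex and at 12883, 5683 and 10632 CPM in the medulla (log2 1.01, SE 0.298, adjusted p = 0.0461). Cyp11a1, which cleaves the cholesterol side chain, stood at 10782, 8601 and 6806 against 6064, 3368 and 4000.3 CPM (log2 0.96, SE 0.278, adjusted p = 0.0420). The groups did not overlap for either gene, and the medullary mean was 0.498 of the cortical mean for Star and 0.513 for Cyp11a1. Hsd3b1, the main 3beta-hydroxysteroid dehydrogenase, was 2.16-fold higher in the cortex, Cyp21a1, steroid 21-hydroxylase, 3.19-fold, and Fdxr, which reduces the electron donor of the mitochondrial enzymes, 2.67-fold. Cyp11b1, which completes corticosterone (ENSMUSG00000075604, chromosome 15, 74834125 to 74841643), stood at 5862, 4950.2 and 5668 against 2566, 1558 and 2289.9 CPM (log2 1.36, SE 0.173, adjusted p = 0.000932). The Star call was lost without any library except medullary library 1 (adjusted p of 0.0779 to 0.117), and the Cyp11a1 call without cortical library 1 or 2 or medullary library 2 or 3 (adjusted p of 0.0729 to 0.135). With age as a covariate the adjusted p was 0.0764 for Star and 0.0546 for Cyp11a1, and with total counts in place of TMM scaling it was 0.0555 for Star.

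Medullary library 2, the one richest in glial transcript, held the lowest value of Star, Cyp11a1, Hsd3b1, Cyp21a1 and Cyp11b1. The summed level of the steroidogenesis list was 72984.6 to 87839.8 CPM in the cortical and 26197.9 to 46705.5 CPM in the medullary libraries. In medullary GFP-negative cells the sum was 10663.9 to 19240.9 CPM, so the medullary GFP-positive libraries all lay above it. How much of the medullary signal came from cortical cells carried over in the dissection was not tested. The summed zona glomerulosa list, in the same medullary GFP-positive libraries, was 721 to 1086 CPM, against 2876 to 4712 CPM in medullary GFP-negative cells. In the cortex that sum was 2718 to 3573 CPM in GFP-positive and 7491 to 9390 CPM in GFP-negative libraries, so it was lower in the GFP-positive gate of both tissues.

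Several genes of the zona glomerulosa were higher in the cortex by a large factor. Of 16 members tested 11 were higher in the cortex and none in the medulla, with a median log2 change of 2.53. Cyp11b2, aldosterone synthase (ENSMUSG00000022589, chromosome 15, 74851010 to 74856318), stood at 103, 62.5 and 65.7 CPM in the cortex and at 0.361, 2.89 and 0.627 CPM in the medulla (log2 5.79, SE 0.595, adjusted p = 0.00034), a 55.5-fold difference. Cyp11b1 and Cyp11b2 are near-identical neighbours on chromosome 15, and reads that map to both could be split or dropped in counting. Agtr1b, an angiotensin II receptor (ENSMUSG00000054988, chromosome 3, 20314473 to 20367177), stood at 7.62, 17.7 and 10.4 against 0, 0.243 and 0 CPM (log2 6.81, SE 0.764, adjusted p = 0.000534). Agtr1a, the more broadly expressed receptor, was 6.15-fold higher in the cortex. Dab2, an endocytic adaptor of glomerulosa cells (ENSMUSG00000022150, chromosome 15, 6299788 to 6440712), stood at 666, 688 and 737 against 32.0, 92.2 and 64.2 CPM (log2 3.47, SE 0.349, adjusted p = 0.000322). Vsnl1, a calcium sensor of these cells, was 10.6-fold higher in the cortex and the calcium pump gene Atp2b3 7.90-fold.

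Several of the largest cortical differences belonged to genes outside the lists. Ctxn3, cortexin 3, stood at 166, 137 and 237 CPM in the cortex and at 13.3, 10.5 and 15.9 CPM in the medulla (log2 3.77, SE 0.254, adjusted p = 0.000137). Smpx, first known as a small muscle protein, stood at 49.0, 52.0 and 54.2 against 0, 6.99 and 4.07 CPM. Caln1, a neuronal calmodulin relative, was 12.1-fold higher and Elovl7, a fatty acid elongase, 15.6-fold. The non-coding transcript 4930511M06Rik was 11.9-fold higher. The gene 1500015O10Rik ranged from 0.981 to 80.7 CPM over the medullary libraries against 205 to 575 CPM in the cortex, and its call (adjusted p = 0.0454) was lost without any cortical library or medullary library 3 (adjusted p of 0.0603 to 0.123) or with age as a covariate (0.0883). Among the most abundant genes at least 4-fold higher in the cortex were Ly6d (8.35-fold), Tmem35a (5.67-fold), Gstm2, a glutathione transferase (7.12-fold), and Hsd3b6, the dehydrogenase isoform of the zona glomerulosa (9.41-fold). Hsd3b1 and Hsd3b6 are close paralogues, so their split depends on the authors' counting.

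Regulators of cortical cells were called in part. Of 23 genes of ACTH signalling and steroidogenic regulation 6 were higher in the cortex and 1 (Dlk1) in the medulla. Mc2r, the ACTH receptor, stood at 208, 267 and 201 CPM in the cortex and at 54.6, 41.4 and 66.3 CPM in the medulla (log2 2.06, SE 0.234, adjusted p = 0.000574). Mrap, the accessory protein that the receptor needs, was not called, at 479, 438 and 262 against 398, 218 and 292 CPM (log2 0.38, SE 0.365, adjusted p = 0.560), and its groups overlapped. Nr5a1, steroidogenic factor 1, was 2.29-fold higher in the cortex, at 309, 381 and 226 against 168, 106 and 125 CPM (adjusted p = 0.0400), a call lost without cortical library 1 or 2 or medullary library 2 or 3 (adjusted p of 0.0836 to 0.130) or with age as a covariate (0.0686). Nr0b1, a nuclear receptor that represses Nr5a1 (ENSMUSG00000025056, chromosome X, 86191764 to 86195947), stood at 4.14, 4.94 and 1.26 against 0.0516, 0 and 0 CPM, 232 times as much (95% counting interval, 41.6 to 9162) (adjusted p = 0.00075). Prkar2b, a regulatory subunit of protein kinase A, was 4.39-fold higher in the cortex and Inha, the inhibin alpha subunit, 5.93-fold.

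Of 10 zona fasciculata and X-zone genes 3 were higher in the cortex (Cyp11b1, Akr1b7 and Tbx3) and none in the medulla, and 1 was called without cortical library 2. Akr1b7, an aldo-keto reductase of fasciculata cells, stood at 11023, 8212 and 4750.0 CPM in the cortex and at 4009, 1264 and 660.1 CPM in the medulla (log2 2.02, SE 0.603, adjusted p = 0.0479). Its call was lost without any library except medullary library 1 (adjusted p of 0.0527 to 0.149) and with total counts in place of TMM scaling (0.0508). Abcb1b, a multidrug transporter of the cortex, did not differ beyond the spread, at 2743, 2830.5 and 3250.0 against 2622, 1832 and 3990.5 CPM (log2 0.06, SE 0.237, adjusted p = 0.904). Aldh1a1, an aldehyde dehydrogenase that makes retinoic acid, stood at 3356, 1459.6 and 1989 against 2436, 1362 and 2091 CPM (log2 0.21, SE 0.572, adjusted p = 0.865). The groups of both genes overlapped, and both were far lower in GFP-negative cells, at means of 39.0 and 27.4 CPM for Abcb1b and 3.77 and 22.1 CPM for Aldh1a1 in the cortex and medulla.

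Cholesterol supply was not called as a tissue difference for most of its genes. Of 24 cholesterol synthesis genes 2 were higher in the medulla and none in the cortex, with a median of -0.45. For that list 1 was called without medullary library 2, 4 with total counts or by voom, and 5 by DESeq2. Of 19 uptake and storage genes 5 were higher in the cortex and 2 in the medulla, with 4 called in all without cortical library 1 or 3 or medullary library 3. Soat1, which esterifies cholesterol for storage in droplets, stood at 693, 737 and 719.6 against 351, 311 and 280.1 CPM (log2 1.19, SE 0.158, adjusted p = 0.00117). Scarb1, the receptor for high density lipoprotein, was not called, at 2656, 2630.0 and 1702 against 2103, 989 and 749 CPM (adjusted p = 0.139), but was without medullary library 1 (adjusted p = 0.0127). Apoe, a lipid carrier of glia, macrophages and steroid cells, was 18.7-fold higher in the medulla, at 388, 608 and 175 against 4749, 11769 and 5346 CPM (log2 -4.22, SE 0.521, adjusted p = 0.000823).

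Wnt genes divided between the tissues, 6 of 20 higher in each, and 7 in all without cortical library 2. Wnt4, a ligand of glomerulosa cells, was higher in the cortex, at 65.5, 116 and 44.0 against 8.93, 13.98 and 8.25 CPM (log2 2.85, SE 0.371, adjusted p = 0.00104). Nkd1, a feedback inhibitor induced by the pathway, stood at 35.2, 31.1 and 25.8 against 2.43, 2.26 and 2.04 CPM (log2 3.77, SE 0.277, adjusted p = 0.000174), and Apcdd1, another inhibitor, was 13.6-fold higher. Higher in the medulla were the ligand Wnt6, Porcn, Dkk3, the secreted antagonists Sfrp1 at 3.83, 9.36 and 2.70 against 137, 341 and 131 CPM (log2 -5.26, SE 0.718, adjusted p = 0.00135) and Sfrp5 at 26.9-fold, and the R-spondin receptor Lgr5 at 7.06-fold. Of 13 hedgehog genes 1, the co-receptor Boc, was higher in the cortex, at 44.3, 49.0 and 49.0 against 10.1, 12.4 and 17.4 CPM (log2 1.83, SE 0.242, adjusted p = 0.00114), and 2 were higher in the medulla. Only 1 of the 3 was called without cortical library 1 or 2 or medullary library 2. Shh, the ligand made by subcapsular cells, was not called, at 3.70, 9.75 and 3.56 against 0, 1.56 and 1.51 CPM (adjusted p = 0.0659), but was without medullary library 1 (adjusted p = 0.0361) and by DESeq2 (0.00947).

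Mural, mesenchymal and capsular genes were mixed. Of 25 pericyte and smooth muscle genes 3 were higher in the cortex and 4 in the medulla, and 3 in all without cortical library 3 or medullary library 2, and 4 without medullary library 1. Rgs5, a pericyte marker, was not called, at 31.5, 74.0 and 51.1 against 75.1, 222 and 107 CPM (adjusted p = 0.200). Ndufa4l2, which is expressed by pericytes and by chromaffin cells, was 26.9-fold higher in the medulla, at 19.2, 11.5 and 7.75 against 466, 279.8 and 287 CPM (log2 -4.75, SE 0.356, adjusted p = 0.000174). Of 21 fibroblast matrix genes 3 were higher in the cortex and 5 in the medulla, with 5 in all without cortical library 3 and 4 without medullary library 2. Lum, lumican, stood at 6.06, 3.69 and 24.9 against 0, 0.0348 and 0 CPM, 776 times as much (95% counting interval, 139 to 30661) (adjusted p = 0.0130), and its call was lost without medullary library 2 (adjusted p = 0.0609) and by voom (0.0847). Pdgfra, a receptor of fibroblasts and capsular cells, was seen almost wholly in cortical library 3 (8.51 CPM, where cortical libraries 1 and 2 had 0 and 0.0430 CPM), and it was not called. Of 17 capsule and cortical stem cell genes 3 were higher in the cortex (Tcf21, Osr2 and Lum), and 5 in all, 1 of them higher in the medulla, without medullary library 3.

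Macrophage transcripts were low. Of 24 members 5 were higher in the medulla and none in the cortex, with a median of -1.59. Over all tested genes 15.5% were called, and 9.45% were higher in the medulla. Csf1r, the macrophage growth factor receptor, stood at 9.00, 13.8 and 6.94 CPM in the cortex and at 37.4, 36.3 and 21.6 CPM in the medulla (log2 -1.68, SE 0.3002, adjusted p = 0.00506). C1qa was not called (adjusted p = 0.120). The summed list was 144 to 1162 CPM in cortical and 1452 to 3377 CPM in medullary GFP-positive libraries, against 15556 CPM or more in every GFP-negative library. The count was 3 without cortical library 1, 2 without medullary library 2, 8 without cortical library 2 and 9 without medullary library 3, while DESeq2 called 14 and a fit with no filter on low counts 12. Of 28 endothelial genes 1 was called in each direction, and Pecam1, a junction protein of endothelium, stood at 11.1, 32.0 and 13.4 against 42.3, 27.2 and 31.1 CPM (adjusted p = 0.260). Single libraries decided those 2 calls, since leaving out any 1 of the 6 left 1 or none.

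Immediate early genes respond to dissociation as well as to stimulation. Of 24 genes of that kind 11 were higher in the medulla and none in the cortex, with a median of -0.77. Fos stood at 519, 261 and 532 CPM in the cortex and at 1792, 1470.1 and 1157 CPM in the medulla (log2 -1.75, SE 0.277, adjusted p = 0.00275). Socs3, a feedback inhibitor of cytokine signalling, was 10.4-fold higher in the medulla, at 4.68, 4.60 and 9.41 against 70.4, 100.3 and 22.9 CPM (adjusted p = 0.00207). Of 17 genes of the glucocorticoid receptor and its response 11 were higher in the medulla and none in the cortex, with a median of -1.11. Fkbp5, a chaperone of the glucocorticoid receptor, stood at 35.7, 32.7 and 26.03 against 74.3, 81.2 and 59.7 CPM (log2 -1.19, SE 0.184, adjusted p = 0.00253). Nr3c1, the receptor itself, was 2.16-fold higher and Zbtb16, a repressor induced by the hormone, 11.1-fold. In GFP-negative cells the medians of the 2 lists were -1.91 and -1.98.

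Of 24 proliferation genes 3 were higher in the cortex and none in the medulla, a count near the 15.5% called over all tested genes. Mcm2, a subunit of the replicative helicase, stood at 39.1, 38.9 and 43.3 against 9.34, 4.80 and 13.5 CPM (log2 2.14, SE 0.296, adjusted p = 0.00146). It was 1 of those 3, and without cortical library 1 or medullary library 2 or 3, or by voom, the list had 1 call. None of 13 mitochondrially encoded genes was called by edgeR, and their share of counts was 10.6% to 16.7% in cortical and 9.61% to 15.2% in medullary libraries. Of 6 lymphocyte and granulocyte genes 1 was called (higher in the medulla), of 4 adipocyte genes 1 in each direction, with 1 in all without cortical or medullary library 1, and the 1 erythroid gene that passed the filter was not called.

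The same tissue contrast in GFP-negative cells gives the setting for these differences. There 3892 genes were called (18.6%), 1683 higher in the cortex (8.06%) and 2209 in the medulla (10.6%). Of the genes higher in cortical GFP-positive cells 51.1% were also called higher in cortical GFP-negative cells, which is 38.3% of the GFP-negative list. For the medulla the shares were 50.3% and 45.0%, and 57 genes were called in opposite directions. The test of the difference itself, the interaction of tissue and gate, called 337 genes (1.61%), 184 of them among the 3236. That count fell to 169, 184 and 183 without cortical GFP-positive library 1, 2 or 3, and to 74, 60 and 80 when GFP-negative cortical library 1, 2 or 3 was left out. Leaving out GFP-negative medullary library 2 gave 56. It was 93 with age as a covariate.

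That test called 3 of 16 zona glomerulosa genes (Cyp11b2, Agtr1b and Dab2), and not, for example, Agtr1a, Vsnl1 or Hsd3b6 (adjusted p of 0.181, 0.137 and 0.133). Cyp11b2 was 55.5-fold higher in cortical than in medullary GFP-positive cells, while in GFP-negative cells the means were 1183 and 483 CPM (interaction 4.50, SE 0.742, adjusted p = 0.0261). The tissue difference was also larger in the GFP-positive gate for Agtr1b (5.31, SE 0.959, adjusted p = 0.0302), Nr0b1 (5.83, SE 1.11, adjusted p = 0.0356), Dab2 (2.53, adjusted p = 0.0336), Nkd1 (2.13, adjusted p = 0.0286) and Ctxn3 (2.01, adjusted p = 0.0271). For all 6 genes the medullary GFP-positive mean was below both medullary GFP-negative libraries. In the cortex, too, the GFP-positive mean was below the GFP-negative mean for Cyp11b2 (77.0 against 1183 CPM) and Dab2 (697 against 3319 CPM). The same held for Nkd1 (30.7 against 120 CPM) and Ctxn3 (180 against 493 CPM), while Agtr1b and Nr0b1 are not compared between cortical gates here. Star, Cyp11a1 and Cyp11b1 had no interaction call (adjusted p of 0.770, 0.467 and 0.145). Gfap differed between gates by -9.68 (SE 1.02, adjusted p = 0.00776), since it was higher in the medulla among GFP-positive cells and stood at 1.36 and 0.223 CPM in cortical and medullary GFP-negative cells. Th, with an interaction of 4.69, was not called (adjusted p = 0.357).

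**Figure D4:**
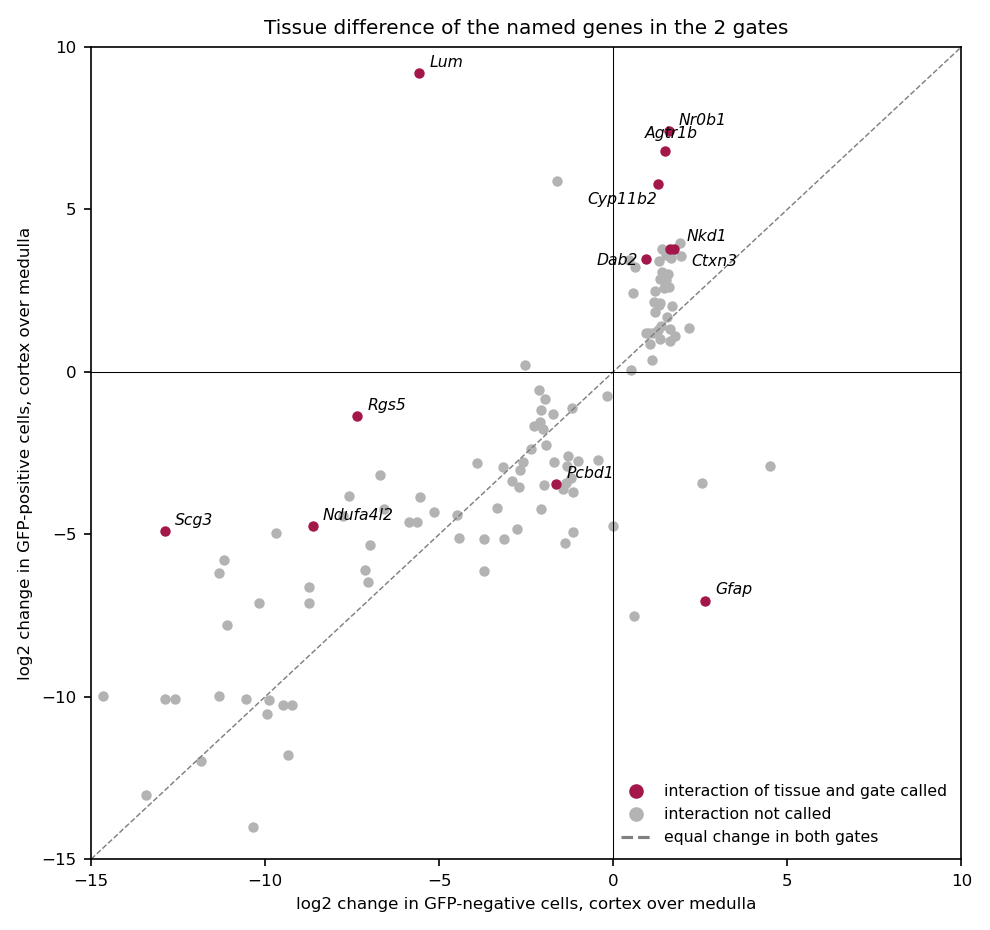
The log2 tissue change (cortex over medulla) of the named genes in GFP-positive cells (vertical axis) against the same change in GFP-negative cells (horizontal axis), with a dashed line where both are equal. Genes whose GFP-negative change lies beyond the left end of the axis are not shown. Among them are Chgb (-19.3), Scg2 (-17.9), Npy (-16.6), Chga (-15.4) and Gal (-15.2). Genes with a called interaction are in red: Cyp11b2, Agtr1b, Dab2, Nr0b1, Nkd1 and Ctxn3 lie above the line at the upper right, Lum at the upper left, and Gfap at the lower right.

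The authors' deposited table for this contrast listed 1039 genes at an adjusted p below 0.05, 126 higher in the cortex and 913 higher in the medulla. Of these 1036 were called here in the same direction and 0 in the opposite one. Across 20893 shared genes the log2 changes in the authors' deposited table and those computed here correlated at Pearson r of 0.935, where both come from the same libraries and genes are not independent replicates.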

How the data were processed

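RNA was measured in 6 GFP-positive libraries (and 5 GFP-negative ones in the same fit), made by poly(A)-primed template switching with no molecular identifiers and no strand information, per the labels' protocols. The authors deposited 1 table of raw counts per gene (49671 genes, 34475 with a count) on mm10; bcl2fastq 2.19.1, GSNAP, featureCounts 1.6.0 and DESeq2 1.18.1 are named in the submitters' processing notes. The authors also deposited tables of log2 fold changes and adjusted p-values, used only where named. Rows of 92 spike-ins (10 counts in all) were left out. Gene symbols came from the authors' tables (25509) or the reference annotation (23915), and 247 genes had none.

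Counts were fitted with edgeR 4.0.16 (R 4.3.3): filterByExpr by group, TMM scaling, the quasi-likelihood test over all 11 libraries, and Benjamini-Hochberg adjustment over all tested genes. CPM uses TMM-scaled library sizes, and the SE was derived as the size of the log2 change over the root of its F statistic. A group with no count was set to 3 counts over the group. The steps were tested on simulated data. Alternatives used limma 3.58.1 (voom) and DESeq2 1.42.0, other scalings and filters, age, a replicate block and leaving out each library.

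Named genes were the 10 with the largest change in each direction (called, not overlapping, mean of at least 20 CPM), the 10 most abundant called at 4-fold or more, the leading 4 of each of 36 gene lists, further list members as examples, and Nes. Members and lists were chosen with earlier results of these data known. Some list members are not reported here.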

Additional observations from a re-analysis of the deposited data

Results flagged for a closer look

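For 12 named genes the tissue difference was not the same in GFP-positive and GFP-negative cells by the test of tissue and gate together (edgeR, adjusted over all genes). The values that follow are the log2 change of cortex over medulla in GFP-positive cells minus that in GFP-negative cells. The cortical excess was larger in GFP-positive cells by 4.50 for Cyp11b2, 5.31 for Agtr1b, 5.83 for Nr0b1, 2.53 for Dab2, 2.13 for Nkd1 and 2.01 for Ctxn3. Gfap differed by -9.68 and Pcbd1 by -1.82, the latter higher in the medulla in both gates. Scg3 differed by 7.98 and was at 0 CPM in cortical GFP-negative cells, so that its size there depends on the fit's prior count. Of the mural and matrix genes, Rgs5 differed by 5.99, Ndufa4l2 by 3.89 and Lum by 14.78, and Lum had 1 medullary GFP-positive count. The medullary GFP-negative group had 2 libraries, and their part in these differences was not tested. Leaving out a GFP-negative library was examined only for the total of interaction calls, not for these 12 genes.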

How the results depend on the processing

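The genes called between cortical and medullary GFP-positive cells numbered 3236, between 2562 and 4339 under other scalings, filters, tools and age, and between 2006 and 2874 when 1 library was left out. None of the 3236 changed sign where it could be tested. With the replicate number as a block 2019 genes were called, Nes was not (adjusted p = 0.133), and 4 cholesterol synthesis genes were. Same-numbered libraries deviated together only weakly (correlations of 0.0265, 0.0318 and 0.0433), and libraries of different numbers were at -0.0230 to -0.00776. Each pair was thus the best match of its number, but the numbers are not used as a pairing. Interaction calls numbered 337, 1559 by DESeq2, 93 with age as a covariate, and 56 to 489 when 1 library was left out, and the cause was not tested. Of 129 named genes 117 were called, and 103 of these were also called without each of the 6 libraries in turn. Bdnf was called in the 4 leave-outs in which it was tested. Signs changed for 3 genes that were not called. Abcb1b, at 0.06, was at -0.016 with total counts in place of TMM scaling, and from -0.17 (without medullary library 2) to 0.40 when 1 library was left out. Aldh1a1, at 0.21, was at -0.059 with age as a covariate, and from -0.18 (without cortical library 1) to 0.46 when 1 library was left out. Pdgfra, at 5.89, ranged from -0.84 (without cortical library 3, which held its reads) to 6.51. Genes of few counts are limited by depth, and 3 counts in 1 library were 0.105 to 0.162 CPM.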

Other observations

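Among retinoic acid genes, which make, bind and read the vitamin A derivative retinoic acid, more calls lay on the medullary side. Of 19 tested in GFP-positive cells, 1 was higher in the cortex and 6 in the medulla, with a median log2 change of -0.09 against -0.03 over all tested genes. Aldh1a2, an enzyme of retinoic acid synthesis, stood at 50.8, 70.1 and 79.0 CPM in the cortex and at 5.88, 12.6 and 5.85 CPM in the medulla (log2 3.02, SE 0.446, adjusted p = 0.00197). Aldh1a3, another enzyme of the same step, stood at 5.26, 2.66 and 7.25 against 191, 176 and 158 CPM (log2 -5.11, SE 0.657, adjusted p = 0.00098). The 2 enzymes thus lay in opposite directions with no overlap between the groups.

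Of 27 axon guidance genes 1 was higher in the cortex and 9 in the medulla, with a median of -1.30, and 6 in all were called without medullary library 2. Slit2, a secreted repellent of axons, stood at 0.0891, 0.687 and 0.135 CPM in the cortex and at 8.05, 13.1 and 5.64 CPM in the medulla (log2 -4.85, SE 0.975, adjusted p = 0.00901). Robo2, a receptor of the Slit proteins, stood at 2.18, 1.07 and 0 against 33.3, 16.8 and 29.8 CPM (log2 -4.61, SE 1.03, adjusted p = 0.0142). Slit2 and Robo2 were both higher in the medulla, and no cortical library reached the lowest medullary value of either gene. Slit3 was also called higher in the medulla. Slit1, a further Slit gene, was the 1 member called higher in the cortex.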
